A study of Mus musculus with 12 samples.

Results

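Sox2 encodes a transcription factor of the SOX family that embryonic stem cells need to remain pluripotent and that neural progenitors keep using after they leave that state. In mouse embryonic stem cells its transcription depends on a distal enhancer cluster downstream of the gene, often called the Sox2 control region. Hi-C ligates DNA ends that lie close together in fixed nuclei, so that each sequenced read pair records a contact between 2 genomic places. HiChIP adds an immunoprecipitation and keeps contacts whose chromatin carried the chosen protein. Here that protein was FGFR1, a growth factor receptor that also enters the nucleus, or CTCF, a DNA-binding protein that marks the bases of many chromatin loops.

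The contacts of Sox2 were taken from the interaction tables of 6 pooled libraries, of ESC and of NCC, each profiled by Hi-C, FGFR1 HiChIP and CTCF HiChIP. ESC were mouse embryonic stem cells of the line E14Tg2A, grown on gelatin with 100 U/mL Leukemia Inhibitory Factor (LIF). NCC, neuronal committed cells, were the same line after 48 h in 1 µM retinoic acid without LIF, which starts neural differentiation. Each table merged the 2 replicates of its group, so the 12 samples gave 1 library per group, no value below has a replicate error, and every test on read pairs compares 2 pooled libraries and not the conditions. The tables hold contacts and no expression, so the cell types could not be checked against marker genes, and both states came from 1 cell line.

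Members were interactions with an anchor, the restriction-bounded segment at which a contact ends, that overlapped chr3:34640000-34660000 (mm10, chromosome 3; the Sox2 window) and whose other anchor overlapped chr3:34300000-35300000. The annotation places Sox2 at 34650405 to 34652461 on the plus strand. The control region was chr3:34750000-34770000, and the centres of both windows lie 110 kb apart. In Hi-C, 246 of 10237359 interactions were members in ESC and 241 of 10708066 in NCC. FGFR1 HiChIP gave 69 members in ESC and 70 in NCC, and CTCF HiChIP gave 37 and 29. The libraries held 20745652 read pairs (ESC Hi-C), 21228099 (NCC Hi-C), 2662606 (ESC FGFR1), 3203872 (NCC FGFR1), 1218098 (ESC CTCF) and 1056437 (NCC CTCF) on chromosomes 1 to 19 and X. Rates below are RPM, the read pairs per 1000000 of these totals, and intervals are exact 95% intervals that cover counting error only.

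Sox2 is the single protein-coding gene that the GENCODE annotation places in the 1 Mb. The other genes overlapping it are non-coding. Sox2ot, a transcript on the same strand, runs from 34104270 to 34682619 and covers Sox2. Upstream lie Gm38505, Gm34599, Gm20515, Gm29135, Gm27403, Gm42695, Gm42205, RF01953, Mir1897 and Gm42692. Downstream lie Gm27611, Gm42693, Gm43206, Gm3143, Gm38509, Gm21388, Mir6378 and 1700017M07Rik. No annotated gene overlaps the control region, which sits between Gm3143 (ending at 34716662) and Gm38509 (starting at 34772075).

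The sequences that bound the contact are shown first, from the GRCm38.p6 genome, which has the coordinates of mm10. The interaction with the most read pairs between Sox2 and the control region, in ESC Hi-C, joined an anchor at 34647797 to 34656483, which contains the gene, with one at 34750944 to 34762264. Both of its anchors are cut at GATC (in capitals below, plus strand), as was every anchor of chromosome 3 in all 6 tables, so the resolution of the contact is set by the spacing of this 4-base site.
Sox2 anchor start, chr3:34647776-34647819: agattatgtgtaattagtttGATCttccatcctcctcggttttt
Sox2 anchor end, chr3:34656463-34656506: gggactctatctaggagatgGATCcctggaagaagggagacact
Control region anchor start, chr3:34750923-34750966: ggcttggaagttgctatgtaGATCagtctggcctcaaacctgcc
Control region anchor end, chr3:34762244-34762287: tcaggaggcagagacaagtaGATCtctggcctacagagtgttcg

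The CTCF core consensus, with any base allowed at 4 of its 12 letters, was searched on both strands. The Sox2 window holds 2 matches and the control region 1 (in capitals below, each printed on the strand of the match). Among 20 kb windows of chromosome 3, 50.7% hold at least 1 match, so their presence is a description and not a site. The match at 34647887 lies upstream of the gene on the plus strand, within the anchor that contains the gene. The match in the control region is on the minus strand, within the control region anchor printed above.
Sox2 window, minus strand, chr3:34640878-34640929: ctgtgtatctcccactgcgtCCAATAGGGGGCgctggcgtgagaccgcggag
Sox2 window, plus strand, chr3:34647867-34647918: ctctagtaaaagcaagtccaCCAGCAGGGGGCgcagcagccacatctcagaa
Control region, minus strand, chr3:34760084-34760135: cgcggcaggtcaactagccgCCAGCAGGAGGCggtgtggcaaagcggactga

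The 250 bases before the RefSeq start of Sox2 (plus strand) are shown because they fall inside the same anchor. They hold 1 copy of ATGCAAA (capitals), the first 7 letters of the octamer that POU factors such as OCT4 recognise, a sequence present on either strand before 4.12% of 32851 RefSeq starts. The whole octamer, ATGCAAAT, occurs once in the Sox2 window, at 34656287 on the minus strand, and no copy was found in the control region. It occurs in 84.8% of 20 kb windows of chromosome 3.
Sox2 promoter, chr3:34649745-34649994: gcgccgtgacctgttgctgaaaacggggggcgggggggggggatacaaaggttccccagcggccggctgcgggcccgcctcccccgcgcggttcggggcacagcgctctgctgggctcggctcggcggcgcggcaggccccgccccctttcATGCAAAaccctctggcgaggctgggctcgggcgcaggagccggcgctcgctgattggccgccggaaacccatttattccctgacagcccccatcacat

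To ask whether the contact of Sox2 with its control region differs between ESC and NCC, the read pairs that joined the 2 windows were compared. Hi-C counted 156 read pairs in ESC and 53 in NCC. At 7.52 and 2.50 RPM, the contact was 3.01-fold lower in NCC (interval 2.19 to 4.19-fold). The difference was -1.59 on the log2 scale (interval -2.07 to -1.13; exact binomial test, two-sided, p = 1.2e-13). Among all 22600 window pairs 110 kb apart with at least 20 read pairs, the adjusted p was 1.18e-10 (Benjamini-Hochberg). In the same comparison 4.61% of window pairs were called higher in ESC and 4.52% higher in NCC, and 11.9% were at least 2-fold higher in ESC whatever their p. The log2 difference was at or below that of Sox2 for 3.46% of these window pairs, and their median was -0.03.

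Coverage of both windows moved with the contact. Ends of read pairs at anchors of the Sox2 window numbered 2034 in ESC and 1479 in NCC Hi-C, and those of the control region 1178 and 746. In each window these ends include the read pairs of the contact itself, 156 in ESC and 53 in NCC. Dividing by the ends therefore also takes out part of the difference in the contact. Divided by the ends of both windows, the difference shrank to -0.41 on the log2 scale and was no longer past the threshold (exact binomial p = 0.0852). Anchors were called separately in each library and covered 15.6 and 12.6 kb of the Sox2 window, and 16.4 and 13.6 kb of the control region, in ESC and NCC. Per covered length the difference was -1.01 (p = 4.12e-06, exact binomial test).

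**Figure D1:**
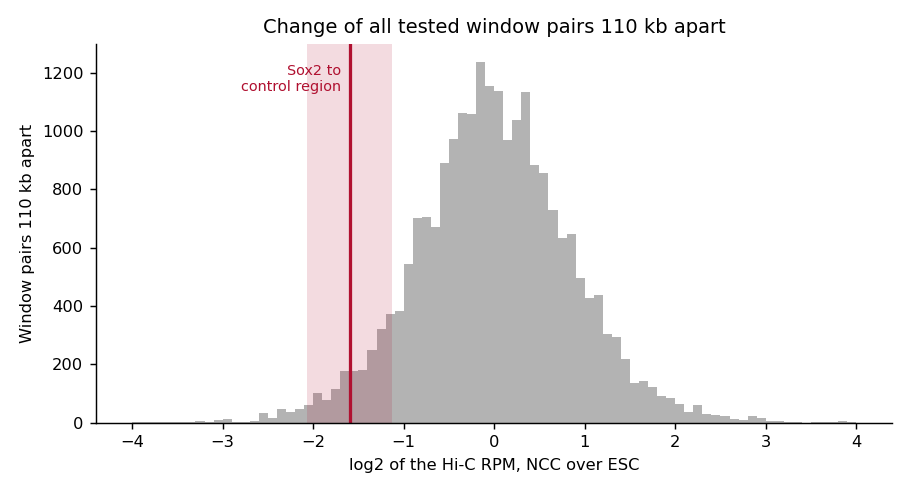
Histogram of the log2 difference in Hi-C RPM, NCC over ESC (x axis), over the tested pairs of 20 kb windows 110 kb apart (y axis, number of window pairs); the line marks Sox2 to the control region and the band its 95% interval. The Sox2 pair sits at -1.59, left of most of the distribution, whose median is -0.03.

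The borders of the anchors that carried the contact differed between the Hi-C libraries. In ESC Hi-C, 6 interactions joined the windows. The control region anchor at 34750944 to 34762264 had 53 read pairs with the anchor that contains Sox2, 39 with the anchor at 34657581 to 34671580 and 28 with the anchor at 34638625 to 34644465. NCC Hi-C had 9 interactions, with 14 read pairs in the strongest, which joined 34656484 to 34671580 with 34758312 to 34763829. In NCC the anchor nearest the gene ran from 34648730 to 34653338 and had 6 read pairs each with the control region anchors at 34758312 to 34763829 and at 34764919 to 34770445. The last of these was the control region anchor with the same borders in both Hi-C libraries, and it had 36 read pairs with the Sox2 window in ESC and 16 in NCC (log2 difference -1.20, exact binomial p = 0.00511). A single interaction had the same borders at both anchors, with 9 read pairs in ESC and 5 in NCC (log2 difference -0.88, p = 0.297, exact binomial test). The anchors ending at 34671580 lie mostly downstream of the Sox2 window, so some of the read pairs counted may end outside it. With anchors placed by their midpoint, the log2 difference of the contact was -1.88 (exact binomial p = 2.07e-11).

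The contact took up a smaller part of all Sox2 contacts in NCC. Of the Hi-C read pairs between the Sox2 window and the rest of the 1 Mb, 19.7% (Wilson 95% interval 17.1 to 22.6%, of 791) went to the control region in ESC and 8.44% (6.51 to 10.9%, of 628) in NCC (Fisher's exact test, p = 1.73e-09). The remaining read pairs numbered 635 in ESC and 575 in NCC, a log2 difference of -0.18 (interval -0.34 to -0.01; exact binomial p = 0.0358). Read pairs with both anchors in the Sox2 window numbered 330 and 198, and those with partners on other chromosomes 214 and 163.

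Set against equal distance, the Sox2 pair was among the strongest of the genome in ESC. Over 97765 pairs of 20 kb windows 110 kb apart, ESC Hi-C had a mean of 7.26 read pairs and a median of 4, and 14 pairs had more than the 156 of Sox2. The Sox2 pair thus held 21.5 times the mean (interval 18.2 to 25.1). In NCC it held 7.15 times the mean (5.36 to 9.36), and 853 of 96529 pairs had more. Divided by the ends of both windows, it held 3.93 times the mean in ESC and 3.06 times in NCC, above 86.8% and 82.2% of pairs. Within the 1 Mb, the other 43 window pairs at this distance reached at most 38 read pairs in ESC and 39 in NCC, with a median of 6 in both.

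The window 110 kb upstream of Sox2, at the same distance on the other side, had 4 read pairs with Sox2 in ESC Hi-C and 6 in NCC Hi-C. The control region had 39 times as many in ESC and 8.83 times as many in NCC (exact binomial tests against equal numbers, p = 3.69e-41 and 1.75e-10). Anchors covered less of that upstream window, 6.99 kb in ESC and 6.80 kb in NCC. They held 282 ends of read pairs in ESC and 369 in NCC, against 1178 and 746 in the control region. The part of these differences in the contrast was not tested. The window 110 kb downstream of the control region had 12 read pairs with it in ESC and 9 in NCC.

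The contacts of Sox2 were then followed by distance. Across 45 windows centred 50 to 630 kb from Sox2 within the 1 Mb, 21 had at least 20 Hi-C read pairs over both libraries. Of these, 3 were called higher in ESC and none higher in NCC by the exact binomial test, adjusted over 477007 window pairs 50 to 630 kb apart. At these distances 5.07% of window pairs were called higher in ESC and 5.03% higher in NCC. The 477007 window pairs used windows placed every 10 kb, which overlap, whereas those of the comparison at 110 kb were placed every 20 kb. Anchors can reach into neighbouring windows, so a read pair may count in more than one of them. By the exact test, the called windows were the control region itself (adjusted p = 8.88e-11), the window at 130 kb, with 81 read pairs in ESC and 49 in NCC (log2 difference -0.76, adjusted p = 0.0404), and the window at 310 kb, with 18 and 4 (log2 difference -2.20, adjusted p = 0.0294). The control region anchor at 34764919 to 34770445 reaches into the window at 130 kb. Its read pairs with Sox2, 36 in ESC and 16 in NCC, were counted both in the control region and in that window. The difference of the window at 130 kb without these read pairs was not tested. The window at 130 kb contains the start of Gm38509. The window at 50 kb had 35 read pairs in ESC and 55 in NCC, and its difference did not pass the threshold (log2 0.62, interval -0.02 to 1.27, exact binomial adjusted p = 0.233). On the upstream side, 15 windows held between 2 and 40 read pairs in ESC and between 2 and 23 in NCC. Of these, only the windows at -210, -90, -70 and -50 kb (negative: upstream) had enough read pairs for the test, and none was called.

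**Figure D2:**
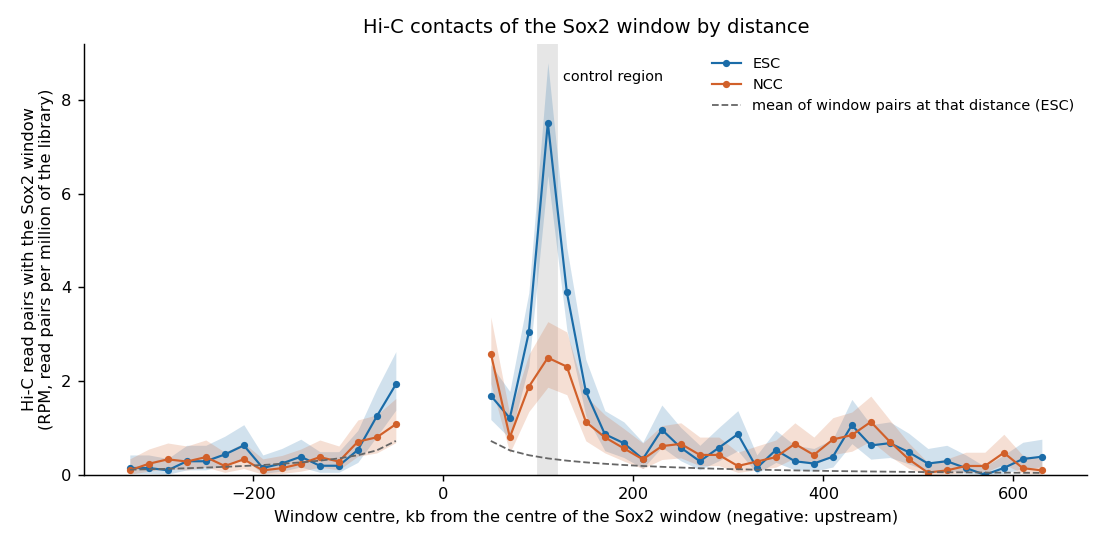
Hi-C RPM between the Sox2 window and 20 kb windows (y axis) by distance from the centre of the Sox2 window in kb (x axis); shaded bands are 95% counting intervals and the dashed line the ESC mean of window pairs at each distance. The highest downstream ESC value lies at the control region (grey), at 7.52 RPM against 2.50 in NCC, and both libraries have a further local high at 430 to 470 kb.

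A further local high lay 430 to 470 kb downstream, at chr3:35070000-35130000, and was present in both cell types. The windows at 430, 450 and 470 kb had 22, 13 and 14 read pairs with Sox2 in ESC Hi-C. In NCC they had 18, 24 and 15. These values were 8.89 to 14.1 times the mean at their distances in ESC and 11.1 to 16.5 times in NCC. None of the differences between ESC and NCC passed the threshold (adjusted p = 0.79, 0.321 and 1, exact binomial test), with intervals of -1.31 to 0.64, -0.18 to 1.95 and -1.09 to 1.23 on the log2 scale. The control region also contacted this stretch. Its windows 330 and 350 kb downstream had 24 and 21 read pairs in ESC and 25 and 13 in NCC, between 6.25 and 11.1 times the means at those distances. No annotated gene lies in these windows.

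Seen from the control region, 10 of 46 windows had enough read pairs for the test, and 3 were called, all higher in ESC. They were the Sox2 window and the 2 windows next upstream of it. The window 130 kb upstream of the control region had 38 read pairs in ESC and 17 in NCC (adjusted p = 0.0439), and the one 150 kb upstream had 17 and 4 (adjusted p = 0.0421, exact binomial test). One anchor spans the border between the Sox2 window and the window 130 kb upstream, so 37 of these 38 ESC read pairs and 12 of the 17 in NCC were counted in both windows. The window 150 kb upstream shared none with the Sox2 window. On its downstream side the window at 50 kb had 13 read pairs in ESC and 18 in NCC, close to the mean at that distance (0.866 and 1.17 times).

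Summed over partners 20 to 340 kb away, the Sox2 window contacted its downstream side more than its upstream side. ESC Hi-C had 541 read pairs downstream and 138 upstream, a ratio of 3.92 (exact binomial p = 3.06e-57). NCC Hi-C had 358 and 121, a ratio of 2.96 (p = 3.03e-28, exact binomial test). At 100 to 140 kb alone, the class that holds the control region, downstream read pairs outnumbered upstream ones 201 to 8 in ESC and 86 to 10 in NCC. The difference between ESC and NCC in the share of downstream read pairs did not pass the threshold over 20 to 340 kb (Fisher's exact p = 0.0531, adjusted 0.128 over 12 comparisons). In both libraries an anchor ending at 34671580 reaches downstream beyond the Sox2 window. With anchors placed by their midpoint, downstream and upstream read pairs were 294 and 113 in ESC and 159 and 85 in NCC (exact binomial p = 1.11e-19 and 2.5e-06). Anchor coverage of the 2 sides was not compared.

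**Figure D3:**
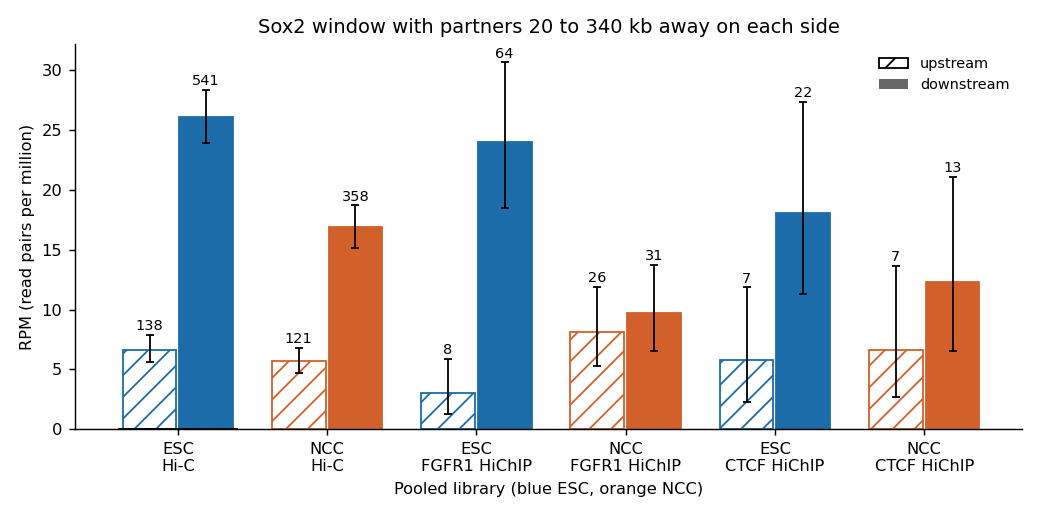
RPM (y axis) of the Sox2 window with partners 20 to 340 kb away, upstream (hatched) and downstream (filled), in each pooled library (x axis); numbers are read pairs and bars 95% counting intervals. The intervals of the 2 sides do not overlap in both Hi-C libraries and in ESC FGFR1 HiChIP (64 against 8), and overlap in NCC FGFR1 HiChIP (31 against 26).

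FGFR1 HiChIP counted 15 read pairs between Sox2 and the control region in ESC and 6 in NCC, or 5.63 and 1.87 RPM. The log2 difference was -1.59 (interval -3.24 to -0.14), with an exact binomial p of 0.0259, 0.0389 when adjusted over the 3 assays. Only 39 window pairs 110 kb apart had 20 FGFR1 read pairs, of which 10.3% were called higher in ESC. Adjusted over these, the p was 0.139. Divided by the ends of both windows, the difference was 0.26, in the other direction (p = 0.801, exact binomial test). Ends of FGFR1 read pairs in the Sox2 window were 106 RPM in ESC and 45.3 in NCC, and those in the control region 52.6 and 34.3. The Sox2 pair held 20 times the mean of window pairs 110 kb apart in ESC and 7.38 times in NCC (intervals 11.2 to 33.0 and 2.71 to 16.1).

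FGFR1 contacts of Sox2 also differed between ESC and NCC in the side of the gene they reached. Downstream read pairs 20 to 340 kb away went from 64 in ESC to 31 in NCC (log2 difference -1.31, interval -1.98 to -0.67, exact binomial p = 1.87e-05). Upstream read pairs went from 8 to 26 (log2 difference 1.43, interval 0.25 to 2.79; exact binomial p = 0.0146, adjusted 0.147). The change in the downstream share had a Fisher's exact p of 1.48e-05 (adjusted 0.000178 over 12 comparisons). In NCC, 12 of the 26 upstream read pairs came from an anchor with under 100 bases in the Sox2 window. Without such anchors the counts were 64 and 8 in ESC and 26 and 14 in NCC (Fisher's exact p = 0.00528), and with anchors placed by their midpoint 34 and 8 in ESC and 25 and 14 in NCC (p = 0.133). The FGFR1 anchor starting at 34657581 ended at 34669117 in ESC, beyond the Sox2 window, and at 34659537 in NCC. Anchors covered 14.0 kb of the Sox2 window in ESC and 8.89 kb in NCC. The part of these anchor differences in the downstream difference was not tested.

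CTCF HiChIP counted 4 read pairs between Sox2 and the control region in ESC and 8 in NCC, at 3.28 and 7.57 RPM. The log2 difference of 1.21 had an interval of -0.70 to 3.39 and did not pass the threshold (exact binomial p = 0.246). No interaction between the windows had more than 1 CTCF read pair in either library. CTCF ends in the Sox2 window were 73.9 and 72.9 RPM, and those in the control region 81.3 and 39.8. Divided by the ends of both windows, the CTCF difference was 2.26 (p = 0.0085, exact binomial test). At this depth 10 pairs in NCC had more CTCF read pairs than Sox2 among 82744 pairs 110 kb apart, and 254 of 83203 in ESC. Within the 1 Mb, the other 43 window pairs at this distance reached 6 CTCF read pairs in ESC, above the 4 of Sox2, and 2 in NCC.

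**Figure D4:**
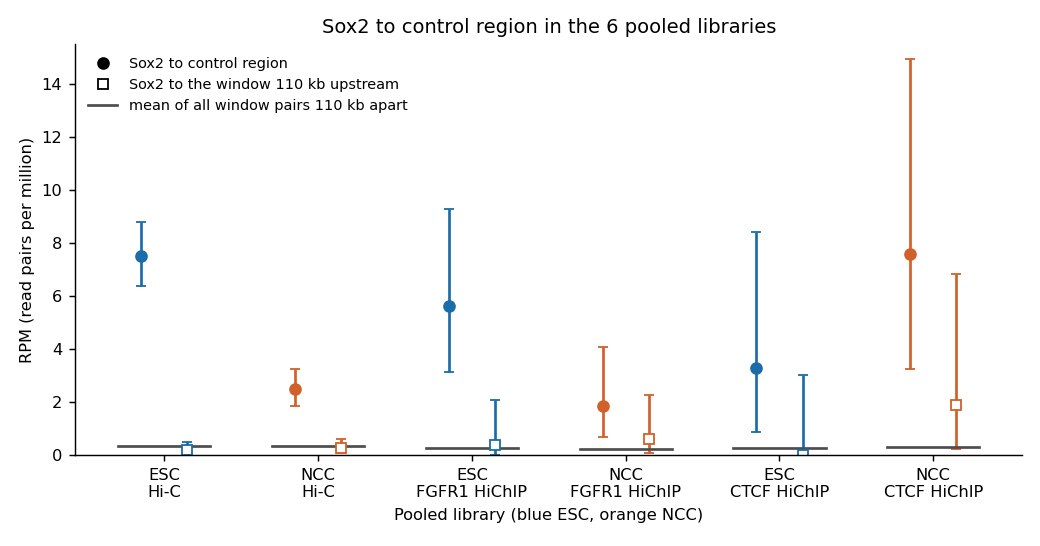
RPM (y axis) between Sox2 and the control region (filled circles) and between Sox2 and the window 110 kb upstream (open squares) in each pooled library (x axis); bars are 95% counting intervals and the horizontal lines the mean of all window pairs 110 kb apart. The control region lies above the mean in all 6 libraries, from 1.87 RPM in NCC FGFR1 HiChIP to 7.57 in NCC CTCF HiChIP. Anchors covered 5.05 kb of the upstream window in ESC FGFR1 HiChIP and 8.20 kb in NCC CTCF HiChIP, but only 0.038 kb of it in NCC FGFR1 and in ESC CTCF HiChIP.

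HiChIP was compared with Hi-C of the same cell type to ask whether either immunoprecipitation enriched the contact. FGFR1 HiChIP had 0.749 times the Hi-C rate in ESC and 0.75 times in NCC. Neither difference passed the threshold (log2 intervals -1.29 to 0.35 and -1.92 to 0.80; exact binomial p = 0.335 and 0.698). The log2 differences at Sox2 were -0.417 and -0.415, against medians of -0.811 in ESC and -1.113 in NCC over the tested window pairs 110 kb apart. Scaled to all read pairs at that distance, those of Sox2 were -0.044 and -0.032. CTCF HiChIP had 0.437 times the Hi-C rate in ESC (log2 interval -3.09 to 0.19, exact binomial p = 0.117). In NCC it had 3.03 times the Hi-C rate (log2 difference 1.60, interval 0.32 to 2.68, exact binomial p = 0.00796, adjusted 0.0319 over these 4 comparisons). Adjusted over all 8961 window pairs 110 kb apart, this p was 0.963. With 10 kb windows the log2 difference was 0.33. For CTCF HiChIP over Hi-C, the median log2 difference of the tested window pairs 110 kb apart was -1.039 in ESC and -1.029 in NCC. All these medians used counts plus 0.5 and the Sox2 values did not, so they are unlike measures. Scaled to all read pairs at that distance, the CTCF differences of Sox2 were -0.629 in ESC and 2.037 in NCC. In NCC, anchors covered 6.045 kb of the Sox2 window in CTCF HiChIP and 12.6 kb in Hi-C. Over such window pairs, FGFR1 HiChIP and Hi-C differed in either direction in 0.631% of ESC and 3.34% of NCC pairs, and CTCF HiChIP and Hi-C in 0% of ESC and 0.0112% of NCC pairs.

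Compared with other genes, Sox2 stood high for contact 110 kb downstream of its start in ESC. Among 21728 protein-coding genes, 8 had more ESC Hi-C read pairs between the 20 kb window on their start and the window 110 kb downstream, and 472 had more in NCC. The genes with the most similar rates over the 6 libraries, by Euclidean distance of log2(rate + 1), were Rai1 (distance 1.19), Dll3 (1.25), Tff3 (1.31), Tmem125 (1.37) and Cbarp (1.37). Rai1 had 80 read pairs in ESC and 78 in NCC, Dll3, a Notch ligand, 71 and 52, Tff3 111 and 74, Tmem125 74 and 56, and Cbarp 170 and 130.

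All contacts of the Sox2 start with partners 20 to 500 kb away numbered 793 in ESC and 615 in NCC Hi-C, at 38.2 and 29.0 RPM. The log2 difference was -0.40 (exact binomial test, adjusted p = 1.22e-06 over 19630 genes). Across those genes 31.5% were called higher in ESC and 21.1% higher in NCC, so such a call is common in these libraries. Of 20 genes that maintain or mark pluripotency, 19 were tested in Hi-C, 9 were called higher in ESC and 4 higher in NCC, and their median log2 difference was -0.31 against -0.08 over all genes. Of 19 SOX genes, 8 were called higher in ESC and 3 in NCC, with a median of -0.17. In FGFR1 HiChIP, 3 of 19 tested pluripotency genes were called higher in ESC and none in NCC, and 4 and 2 of 17 SOX genes, where 19.2% of all 17216 genes tested were called higher in ESC and 8.49% higher in NCC. In CTCF HiChIP the counts were 1 and 2 of 12 pluripotency genes and 0 and 1 of 14 SOX genes, where 6.36% of all 10090 genes tested were called higher in ESC and 5.92% higher in NCC.

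The genes called with the lowest log2 differences were Sox3, a gene of the same SOX subgroup as Sox2, with 46 read pairs in ESC and 3 in NCC (-3.97, interval -6.30 to -2.33), Sox5, which encodes a SOX protein without its own activation domain, with 336 and 200 (-0.78), and Prdm14, a regulator of naive pluripotency, with 288 and 176 (-0.74). Those with the highest were Sox7, an endoderm and endothelial factor, with 337 and 540 (0.65), Tbx3, a T-box regulator, with 379 and 588 (0.60), and Utf1, a chromatin-bound factor of undifferentiated cells, with 404 and 578 (0.48). Sox3 lies on chromosome X, and its read pairs were few, at 2.22 RPM in ESC and 0.141 in NCC, against 16.2 and 9.42 for Sox5. Sox1, the other member of the subgroup of Sox2 and Sox3, had 688 and 468 read pairs (-0.59). Pou5f1, which encodes the OCT4 protein that binds DNA together with SOX2, had 497 and 341 (-0.58). Sox1 and Pou5f1 were named after their values were seen. Nanog, another core pluripotency gene, likewise named afterwards, had 432 and 389 (-0.18, adjusted p = 0.116, exact binomial test).

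**Figure D5:**
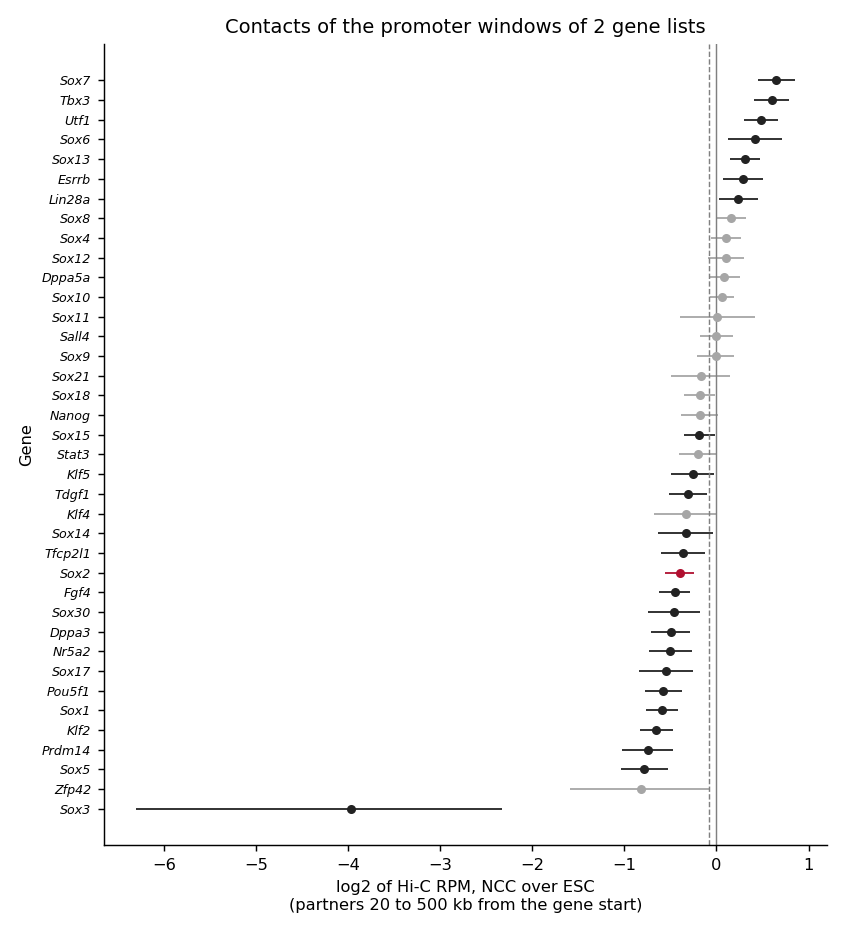
log2 difference in Hi-C RPM, NCC over ESC (x axis), for the promoter windows of the tested genes of the pluripotency and SOX lists (y axis), with 95% counting intervals; black points have an adjusted p below the threshold, grey ones do not, and Sox2 is red at -0.40. The dashed line is the median of all genes (-0.08).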

How the data were processed

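The authors mapped Hi-C and HiChIP read pairs to mm10 with HiC-Pro, removed duplicates, and called anchors and interactions with hichipper at default settings without a q filter. Tool versions are not given in the sources used here. The deposited score is a count of read pairs per interaction, with both replicates merged, so the counts carry no replicate error. All scores were whole numbers.

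Read pairs of anchors overlapping 20 kb windows were summed with Python 3.11.15, numpy 2.4.6, pandas 2.3.3 and scipy 1.17.1, on chromosomes 1 to 19 and X. Libraries were compared by two-sided exact binomial tests given their totals, with Benjamini-Hochberg adjustment and a threshold of 0.05, where both libraries together held at least 20 read pairs. Ratios plotted or ranked over many window pairs or genes used counts plus 0.5. The window counter and the test were tested on simulated data: of 22600 simulated Hi-C window pairs 110 kb apart, the test recovered 5% of those changed 2-fold and 32% of those changed 3-fold. Fewer window pairs were changed in the simulation than were called in the data, so these shares need not hold for the data.

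Members, gene lists and windows were chosen with earlier results of these data known. Named were Sox2, every gene overlapping the 1 Mb, the 5 genes nearest to Sox2 in rate over the 6 libraries, and from both lists the 3 highest and 3 lowest Hi-C differences past the threshold. Sequences came from RefSeq (GRCm38.p6). Alternatives were other scalings, window sizes, anchor placements and count minimums.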

Additional observations from a re-analysis of the deposited data

Results flagged for a closer look

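The change of the Sox2 to control region contact from ESC to NCC differed between CTCF HiChIP and Hi-C. Hi-C had 156 read pairs in ESC and 53 in NCC, whereas CTCF HiChIP had 4 and 8. Given the library totals, 22.4% of the CTCF read pairs would lie in NCC at the Hi-C ratio, and 66.7% did (exact conditional test on the 4 counts, two-sided, p = 0.00188, adjusted 0.00377 over 2 assays). It rests on 12 CTCF read pairs. The same exact test gave p = 1 for FGFR1 HiChIP, where 28.5% would lie in NCC at the Hi-C ratio and 28.6% did.

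The downstream and upstream FGFR1 read pairs of Sox2, 20 to 340 kb away, went from 64 to 31 downstream and from 8 to 26 upstream (Fisher's exact p = 1.48e-05). On its own the upstream difference did not pass the threshold (exact binomial test, adjusted p = 0.147). An anchor with under 100 bases in the Sox2 window gave 12 of the 26 upstream read pairs in NCC, and without such anchors the counts were 64 and 26 downstream and 8 and 14 upstream (Fisher's exact p = 0.00528). With anchors placed by their midpoint the p was 0.133, and among interactions with a score of at least 2 it was 1.23e-09, from counts of 45 and 2 in ESC and 2 and 13 in NCC. FGFR1 anchors covered 14.0 kb of the Sox2 window in ESC and 8.89 kb in NCC.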

How the results depend on the processing

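Of 112 alternative values, 75 kept their direction and their side of the threshold, or stayed within their interval or within 1.5 times of a count, and 37 did not. The NCC over ESC log2 difference of the Sox2 to control region contact in Hi-C ranged from -2.03 (10 kb windows) to -0.41 (divided by the ends of both windows, exact binomial p = 0.0852). It was -0.88 over the interaction with the same anchors in both libraries (p = 0.297, exact binomial test). That alternative was chosen after seeing the data. So were those per covered length, over like control region anchors, and without anchors that had under 100 bases in the Sox2 window. In FGFR1 HiChIP the call was lost when scaled to the other Sox2 pairs (-1.21), by midpoint placement (-1.12), with 10 kb (-2.27) and 40 kb windows (-0.63), per covered length (-1.03) and over like control region anchors (-2.59), and the sign turned when divided by the ends of both windows (0.26). In CTCF HiChIP that division gave 2.26, past the threshold. The HiChIP over Hi-C differences passed the threshold with 40 kb windows for CTCF (-1.24) and FGFR1 (-0.79) in ESC, dropped below it with 10 kb windows for CTCF in NCC (0.33), and turned for FGFR1 in NCC by midpoint placement (0.24). The log2 of downstream over upstream pairs turned to -2.70 for NCC FGFR1 and was 0 for ESC CTCF among interactions with a score of at least 2.

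The ratio to equal-distance pairs, divided by ends, was 3.93 in ESC Hi-C, 3.06 in NCC Hi-C, 2.29 in ESC FGFR1, 2.53 in NCC FGFR1, 1.45 in ESC CTCF and 5.99 in NCC CTCF. Not divided by ends, the ratio was 21.5 in ESC Hi-C and 7.15 in NCC Hi-C. In HiChIP it was 20 in ESC FGFR1, 7.38 in NCC FGFR1, 11.8 in ESC CTCF and 25.2 in NCC CTCF. With 40 kb windows this undivided ratio was 10.4 in ESC Hi-C, 3.95 in NCC Hi-C, 7.25 in ESC FGFR1 and 10.8 in NCC CTCF. With 10 kb windows it was 0 in ESC CTCF and 9.80 in NCC CTCF. With a score of at least 2 it was 29.4 in ESC Hi-C, 9.73 in NCC Hi-C, 72.7 in ESC FGFR1 and 0 in both CTCF libraries. Midpoint placement called 492 Hi-C window pairs 110 kb apart higher in ESC and 485 in NCC (1042 and 1021 by overlap), and 1 FGFR1 pair higher in ESC (4 by overlap). A minimum of 10 read pairs called 3 FGFR1 pairs higher in NCC (0 at 20). The causes were not tested.

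No paired analysis was possible because each table merges both replicates, and leaving out a replicate could not be run for the same reason. The FGFR1 and CTCF counts are small, and the CTCF interval spans both directions.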
